A study of Mus musculus with 9 samples.

Results

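The MYC, MAX and MXD network was measured in RAW 264.7 cells, a macrophage line grown from a mouse tumour that Abelson leukaemia virus had induced. Its members here were the 8 genes Myc, Mycn, Max, Mxd1, Mxd3, Mxd4, Mxi1 and Mnt. Every probe set that the array's annotation assigned to 1 gene symbol among these 8 was taken, whatever its intensity. That gave 17 probe sets, of 22626 probe sets and 12393 named genes in all. Total RNA was hybridised to 9 Affymetrix arrays, each holding 1 sample. Untreated cells supplied 3 arrays, cells exposed for 18 h to 100 ng/ml lipopolysaccharide (LPS) supplied 3, and cells labelled as over-expressing CstF-64 all the time supplied 3. All 3 groups were the same line, so all carry the viral transformation. No array came from cells with an empty vector, and no source used here gives the promoter of the construct or says whether the over-expressing cells were 1 clone or a pool. Nothing says that the arrays of a group came from separate cultures, so the p-values cover the spread among these arrays only, and that spread may be technical.

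The proteins of this network bind DNA as pairs through a basic helix-loop-helix leucine zipper domain. MAX is the shared partner. MYC and MYCN pair with MAX, bind the E-box motif CACGTG and recruit histone acetyltransferases that promote transcription of genes for ribosome assembly, metabolism and cell division. The MXD proteins MXD1, MXD3, MXD4 and MXI1, and the larger protein MNT, compete for MAX at the same motif and recruit SIN3 and histone deacetylases that repress it. In the macrophage lineage MYC is associated with dividing precursors and MXD1 with cells that leave the cycle and differentiate. LPS, a component of the outer membrane of bacteria, is sensed by TLR4 on macrophages. CstF-64, the product of Cstf2, helps to cleave nascent transcripts before their poly(A) tails are added.

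The network's own motif was looked for in the members' promoters, because MYC and MXD proteins compete at it. The promoters were RefSeq sequences of the mouse assembly GRCm38.p6, each running from 250 bases before to 50 bases after an annotated start site. The search was for CACGTG, which reads the same on both strands. Of the 8 members, 7 matched this table, all but Myc. The motif was in the promoter of 3 of these 7 genes, Max, Mxd4 and Mnt, against 7.15% of all 32851 promoters and 8.09% of all 27025 genes in the table. It was not among the letters of these windows for Mycn, Mxd1, Mxd3 and Mxi1. The sequences are written 5' to 3' on the strand of the gene, with the motif in capitals and flanks in lower case. A match is a description of letters, not of binding. The Max window is chr12:76962246-76962271 on the minus strand, with the motif at position -3, across the start site. The Mxd4 window is chr5:34187904-34187949 on the minus strand, with the motif at position -219 from the start site. The Mnt window is chr11:74830781-74830826 on the plus strand, with the motif at position -123.
Max: cccggcgcggtgagcccggtCACGTG
Mxd4: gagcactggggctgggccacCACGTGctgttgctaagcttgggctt
Mnt: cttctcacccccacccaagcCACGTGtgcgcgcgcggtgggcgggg

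Before deposit, each array was scaled to one trimmed mean. Their median intensities lay between 42.75 and 54.2, and arrays of 1 group correlated at 0.965 to 0.989 over all probe sets. Within their groups, LPS array 1 and CstF-64 array 1 correlated least with the others. CstF-64 array 1 correlated more closely with untreated array 1 (0.981) than with its own group (at most 0.976). All 6 genes that check the LPS label (Il1b, Tnf, Nos2, Ptgs2, Ccl5 and Irf7) rose in the LPS arrays, by 4.34 to 5.88 on the log2 scale. All 10 macrophage markers were above background on every array. Of 25 markers of T cells, B cells, granulocytes, fibroblasts and endothelium, 2 were (Col1a2 and Kdr). The summed macrophage markers lay at 17066.1 to 23376.1 untreated, 23348.1 to 26746.5 with LPS and 18822.8 to 22479.5 under the CstF-64 label. Single markers did not all follow this sum. With LPS, 4 of the 10 passed limma's test as higher and 1, Csf1r, as lower (-0.70, adjusted p = 0.00466). None passed under the CstF-64 label, where Adgre1 had a mean of 221 against 510.6 untreated (-1.15, limma adjusted p = 0.0777). The fibroblast marker Dcn rose with LPS, from below background in all 3 untreated arrays (mean 7.27) to a mean of 47.5. The part of these shifts in the results was not tested. Cstf2 itself read 397.8, 363.1 and 372.2 in untreated cells and 317.9, 361.5 and 394.5 in the arrays labelled CstF-64. That is a log2 difference of -0.08 (limma adjusted p = 1), so its probe set does not show the labelled over-expression. Its paralogue Cstf2t differed by -0.04 (adjusted p = 1). With LPS, Cstf2 fell by 0.74 (limma adjusted p = 0.00343). A construct without the stretch this probe set reads would not be seen. The group is therefore called "the arrays labelled CstF-64". In bulk RNA, a change in the share of cells that express a gene and a change per cell cannot be told apart.

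LPS cells held more RNA of Myc and of the repressor gene Mxd1, and a lower signal at 2 of 3 probe sets of Mycn. Max, Mxi1 and Mnt did not pass the test in either comparison with untreated cells. None of the 8 genes passed in the arrays labelled CstF-64 against untreated. Differences are given as log2(intensity + 13), a scale that makes changes of dim probe sets look smaller. A probe set was called where its adjusted p was under 0.05 in limma's moderated test over all 22626 probe sets. Each gene was counted by its probe set of highest mean intensity. On that count LPS changed 2 of the 8 members, both upward, where 17.1% of all genes were called (6.67% higher and 10.4% lower). Of the 17 single probe sets 6 were called, 2 higher and 4 lower, against 16.6% of all probe sets (5.93% higher and 10.7% lower). LPS and untreated readings were fully separate at 8 of the 17, against 33.4% of all. A probe set counted as above background where it exceeded 31.2, the highest reading of the bacterial control probe sets. On every array 7 of the 17 exceeded it, on some arrays 3 (Myc, Max and Mxd1), and on none 7.

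**Figure D1:**
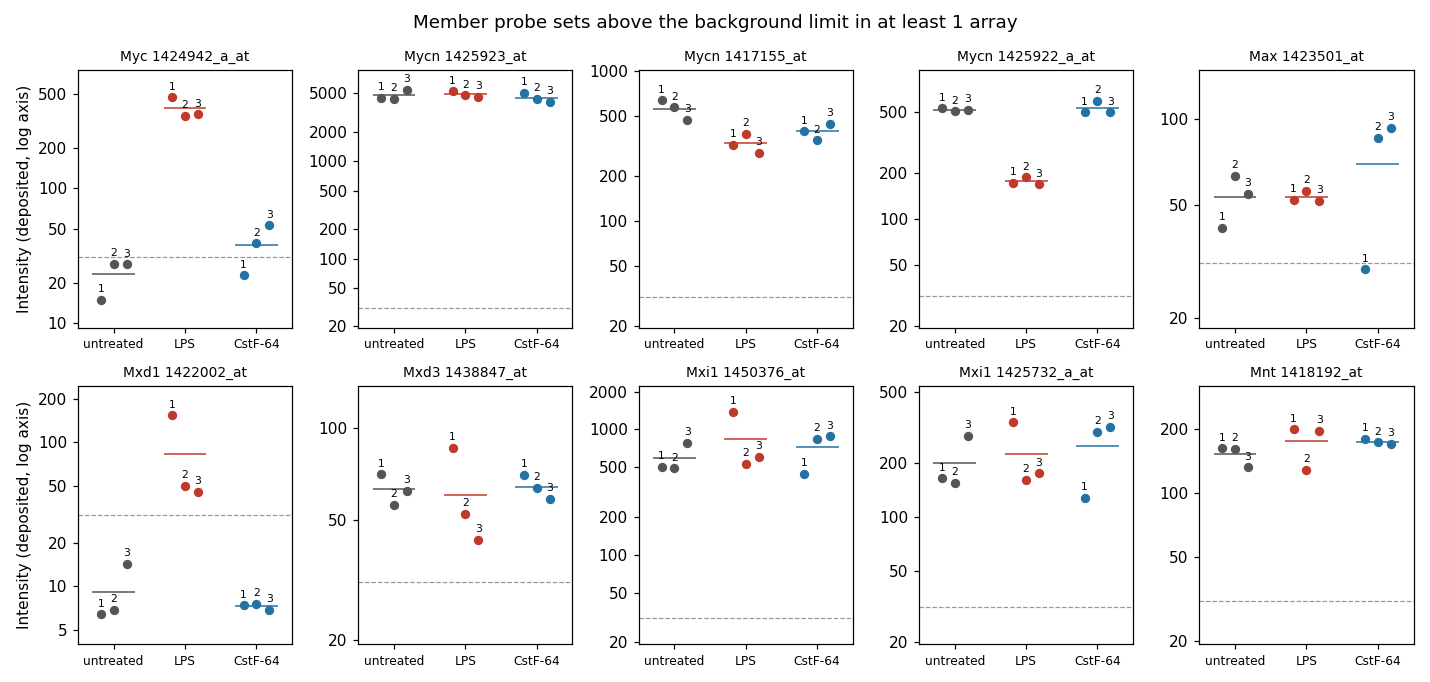
Deposited intensity (log axis) of the 10 member probe sets that exceeded the background limit in at least 1 array, by group. Each numbered point is 1 array, each bar the mean of 3 arrays, and the dashed line the background limit of 31.2. Myc and Mxd1 stand above the limit in all 3 LPS arrays and below it in all 3 untreated arrays, and Mycn 1425922_a_at is lowest in the LPS arrays.

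Among the MYC proteins, Myc showed the largest difference of any member. Its single probe set, 1424942_a_at (chromosome 15), read 14.9, 27.6 and 27.4 in the untreated arrays. The LPS arrays read 471.1, 344.3 and 352.0, and the arrays labelled CstF-64 read 22.7, 39.1 and 53.1. Thus every LPS array was far above every other array, and no untreated array exceeded background. Mean intensity was 23.3 ± 7.28 untreated, 389.1 ± 71.1 with LPS and 38.3 ± 15.2 under the CstF-64 label (SD, n = 3 each). LPS raised Myc by 3.48 on the log2 scale (SE 0.25, 95% interval 2.91 to 4.05, limma adjusted p = 2.1e-05). With the background limit in place of the untreated readings, Myc was at least 12.3-fold higher. All 17 alternative settings called this rise, at 2.54 to 3.91. In the order of levels LPS came first. The arrays labelled CstF-64 and untreated came next and did not differ beyond their spread, at 0.48 (interval -0.09 to 1.04, adjusted p = 0.867).

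Mycn, the paralogue best known from the nervous system and its tumours, is expressed in these cells and has 3 probe sets on chromosome 12, which did not move together. The brightest, 1425923_at, read 4513.7, 4375.1 and 5486.2 untreated, 5260.4, 4772.4 and 4614.5 with LPS, and 5090.0, 4367.1 and 4124.9 under the CstF-64 label. The 3 groups overlap throughout, and all 9 arrays lie within a narrow band. The LPS difference was 0.03 (interval -0.28 to 0.34, limma adjusted p = 0.923), and its sign turned under quantile normalization, to -0.23. The second, 1425922_a_at, read 528.9, 504.5 and 513.8 untreated and 172.9, 186.8 and 168.7 with LPS. Under the CstF-64 label it read 498.0, 590.4 and 496.0. Here the LPS arrays formed a tight group well below all others. The fall was 1.48 on the log2 scale, from 515.7 ± 12.3 to 176.1 ± 9.47 (SD, n = 3 each; log2 change -1.48, SE 0.11, limma adjusted p = 2.1e-05).

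The last Mycn probe set, 1417155_at, read 633.3, 568.9 and 468.3 untreated, 319.6, 380.2 and 283.8 with LPS, and 393.5, 342.7 and 444.1 under the CstF-64 label. All LPS arrays and all arrays labelled CstF-64 lay below all untreated arrays. With LPS it fell by 0.74 (SE 0.16, 95% interval -1.09 to -0.39, limma adjusted p = 0.0103). Under the CstF-64 label the difference of -0.48 (interval -0.84 to -0.13) had an unadjusted p of 0.0119 and missed the threshold over all probe sets, with a limma adjusted p of 0.525. Both Mycn falls were called under all 17 alternative settings, with 1417155_at between -0.86 and -0.59 and 1425922_a_at between -1.53 and -1.32. Whether the probe sets of 1 gene moved unequally was tested with limma's diffSplice over the 4956 genes that have several. Mycn was called for LPS (F = 28.7, adjusted p = 1.1e-04), as were 5.59% of those genes, and was the only member called. Probe sets of 1 gene can read different transcript ends or introns, and which stretch of Mycn each one reads was not examined.

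Max, the obligate partner, has 1 probe set, 1423501_at (chromosome 12), near the background limit. It read 41.6, 63.4 and 54.7 untreated, 52.1, 56.1 and 51.8 with LPS, and 29.7, 85.9 and 93.4 under the CstF-64 label. The LPS arrays fell inside the untreated range, while the arrays labelled CstF-64 spread from the lowest to the highest reading of all 9. The LPS difference was 0.02 (interval -0.69 to 0.72, limma adjusted p = 0.984) and the CstF-64 difference 0.22 (interval -0.48 to 0.93, adjusted p = 1). Intervals this wide do not show that the level of Max stayed the same.

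Mxd1, the repressor associated with differentiation, was the only MXD gene whose brightest probe set changed. That probe set, 1422002_at (chromosome 6), read 6.4, 6.9 and 14.3 untreated and 7.4, 7.6 and 6.9 under the CstF-64 label, all below background. With LPS it read 154.3, 50.0 and 45.5, all above background. LPS array 1 read highest, and even the lowest LPS array exceeded every other array. The rise was 1.96 on the log2 scale (SE 0.35, 95% interval 1.17 to 2.74, limma adjusted p = 0.0045), at least 2.26-fold against the background limit. It was called under all 17 alternative settings, at 1.06 to 2.63, and was 1.47 without LPS array 1. The arrays labelled CstF-64 and untreated did not differ beyond their spread (-0.11, interval -0.90 to 0.67, adjusted p = 1).

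Mxi1, also called MXD2, is another repressor of the MXD group. Its brightest probe set, 1450376_at (chromosome 19), read 502.8, 488.1 and 784.2 untreated, 1386.7, 531.5 and 607.2 with LPS, and 444.1, 843.0 and 877.4 under the CstF-64 label. The 3 groups overlapped, because single arrays within each group stood apart. Untreated array 3, LPS array 1 and CstF-64 arrays 2 and 3 read higher than the rest. The second probe set, 1425732_a_at, showed the same 4 arrays high: 165.3, 156.0 and 285.5 untreated, 339.6, 161.6 and 175.7 with LPS, and 128.3, 300.6 and 321.0 under the CstF-64 label. The LPS differences were 0.40 (interval -0.44 to 1.24, limma adjusted p = 0.555) and 0.12 (adjusted p = 0.886). Without LPS array 1 they were -0.02 and -0.20.

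Several genes outside the network showed the pattern of Mxi1 over the 9 arrays; they were looked up after its values were seen. The measure was the root mean square difference of log2 values, each centred on its own mean. The nearest genes were Bcar1 (0.143), Ero1a (0.156) and Casp6 (0.177). Ero1a, an oxidase of disulfide bond formation, read 1685.1, 1730.5 and 3095.1 untreated and 4119, 2106.9 and 2190 with LPS. Under the CstF-64 label Ero1a read 1320.4, 3343.2 and 3278.7. Ndrg1, a stress gene known as repressed by MYC, was picked by name and not by nearness. It lay further from Mxi1 (0.281 at 1420760_s_at). At that probe set Ndrg1 read 1089, 1202.3 and 2142.1 untreated. With LPS it read 2369.9, 1087 and 1178.5, and under the CstF-64 label 623.7, 2076.6 and 2076.6. The same 4 arrays were the highest at all 5 probe sets of Ndrg1. This spread lies within each group, and its cause was not tested.

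**Figure D2:**
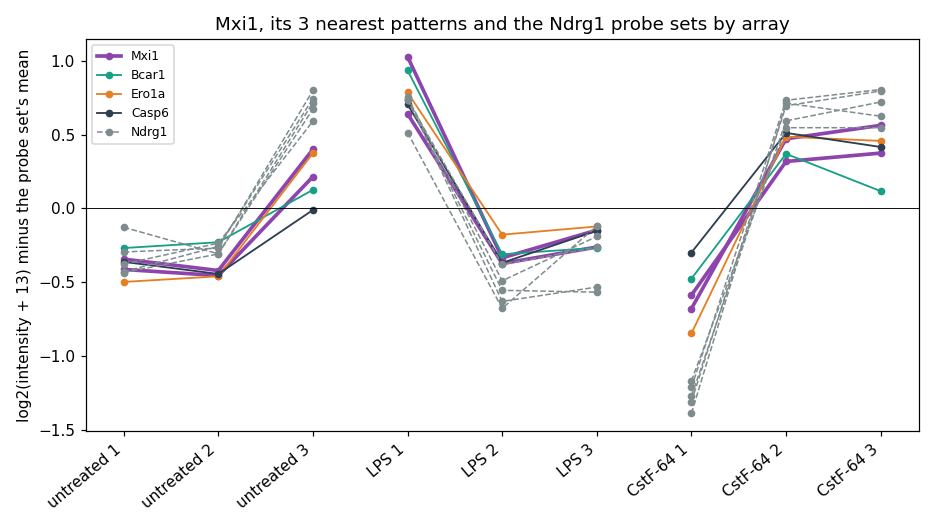
Log2(intensity + 13) of Mxi1 and of the genes nearest to it in pattern, with Ndrg1, in each of the 9 arrays, each line centred on its own mean. Untreated array 3, LPS array 1 and CstF-64 arrays 2 and 3 are higher than the other arrays in all lines, for Mxi1 at 784.2, 1386.7, 843.0 and 877.4.

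Mxd3, an MXD gene tied to dividing cells, has 3 probe sets on chromosome 13, of which 1438847_at was above background. It read 70.5, 55.9 and 62.3 untreated, 86.2, 52.2 and 43.0 with LPS, and 70.1, 63.6 and 58.7 under the CstF-64 label, so that the LPS arrays reached both above and below the others. The LPS difference was -0.09 (interval -0.57 to 0.40, limma adjusted p = 0.856) and turned to 0.09 under quantile normalization and 0.07 under median centring. The other probe sets never exceeded background, so no fold is given for them. There 1422970_at read 21.6, 22.8 and 27.1 untreated against 10.9, 8.7 and 12.2 with LPS, and 1448878_at read 16.7, 12.8 and 10.4 against 1.9, 0.4 and 1.3. Both were called lower with LPS (-0.64, limma adjusted p = 0.0125, and -0.88, adjusted p = 0.00568). These readings are under the limit set by control probe sets.

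Mxd4, another MXD repressor, did not exceed background on any array at any of its 4 probe sets (chromosome 5). The brightest, 1422575_at, read 30.5, 22.2 and 28.6 untreated, 22.2, 16.4 and 18.0 with LPS, and 23.0, 28.3 and 27.1 under the CstF-64 label. Its LPS difference was -0.33 (limma adjusted p = 0.199). Mnt, the broadly expressed repressor that often balances MYC, read 162.9, 162.4 and 132.7 untreated at 1418192_at (chromosome 11). With LPS it read 200.6, 129.4 and 197.0, spanning the untreated range, and under the CstF-64 label 181.1, 174.0 and 170.9. The last group lay just above all untreated arrays. Neither difference passed the test, at 0.17 with LPS (interval -0.21 to 0.55, limma adjusted p = 0.589) and 0.19 under the CstF-64 label (interval -0.19 to 0.57, adjusted p = 0.98). The other Mnt probe set, 1418193_at, never exceeded background.

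**Figure D3:**
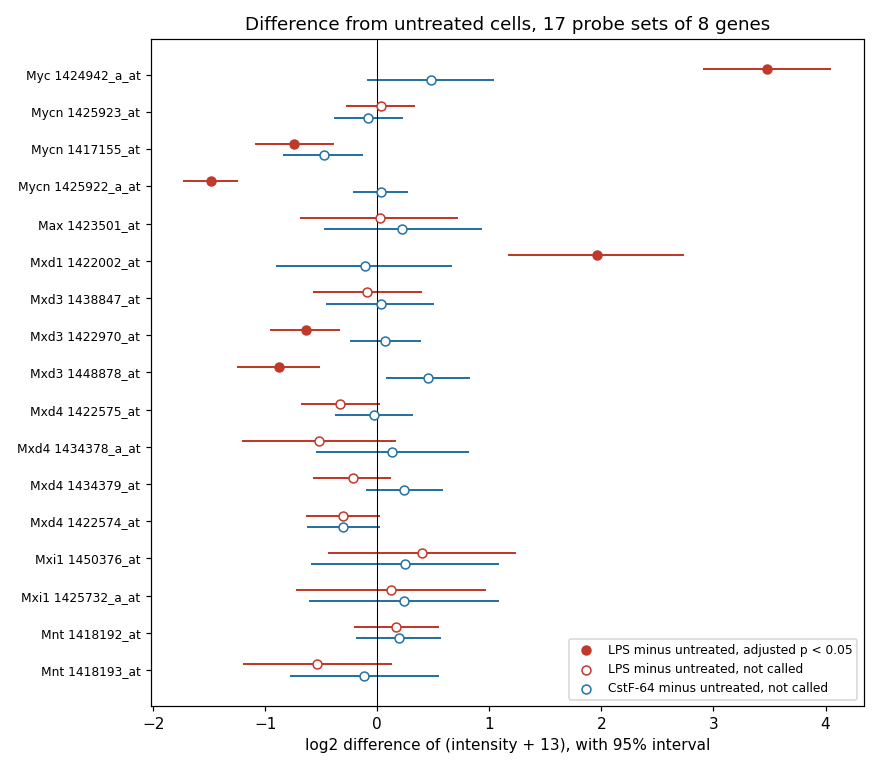
Log2 difference from untreated cells, on the log2(intensity + 13) scale, for all 17 member probe sets, with LPS and under the CstF-64 label. Points are fitted differences and bars 95% intervals from limma. Myc at 3.48 and Mxd1 at 1.96 stand to the right with LPS, and Mycn 1425922_a_at at -1.48 to the left.

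Counting a gene by its brightest probe set hid part of the pattern of genes with several. When the log2 values of a gene's probe sets were averaged instead, 4 of the 8 members were called with LPS. The share of all genes called by this average is not given here, so whether 4 of 8 exceeds it cannot be said. Myc and Mxd1 were higher as before. Mycn was lower by this measure (-0.73, SE 0.10, limma adjusted p = 8.2e-04), and so was Mxd3 (-0.54, SE 0.14, adjusted p = 0.023), whose average rests largely on readings below background.

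Under the CstF-64 label 0 of the 8 members passed against untreated by limma, where 0.274% of all genes were called. None of the 8 had an unadjusted p under 0.05 at its brightest probe set. Over all 17 probe sets 2 did, Mycn 1417155_at (-0.48) and Mxd3 1448878_at (0.45, unadjusted p = 0.0215), the latter below background. The same held for 1460 of all 22626 probe sets. Readings were fully separate at 3 of the 17 probe sets, Mnt 1418192_at above and Mycn 1417155_at and Mxd4 1422574_at below untreated, against 12.9% of all. The share of all probe sets called was 0.248%, made up of 0.102% higher and 0.146% lower. This comparison and the one with LPS share the same 3 untreated arrays, so their differences are not independent. Set directly against LPS, the arrays labelled CstF-64 were lower for Myc (-3.00, limma adjusted p = 5.7e-05) and Mxd1 (-2.07, adjusted p = 0.00357), or 2 of 8 members, where 15.9% of genes were called (9.51% higher and 6.38% lower). By probe set 5 of 17 were called, where 15.2% of all were (9.43% higher and 5.79% lower), and 7 of 17 were fully separate, where 30.8% of all were. They were higher for Mycn 1425922_a_at (1.51, adjusted p = 2.2e-05) but did not pass for Mycn 1417155_at (0.26, adjusted p = 0.343). They were also higher at both Mxd3 probe sets that never exceeded background, 1422970_at (0.72, adjusted p = 0.00799) and 1448878_at (1.34, adjusted p = 5.9e-04). In that comparison the probe sets of Mycn (diffSplice adjusted p = 2.0e-05) and of Mxd3 (adjusted p = 0.00782) moved unequally, as did those of 5.67% of genes.

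Of all genes whose mean was above background, the ones nearest to Myc in pattern over the 9 arrays were Zc3h12a, Nfkbiz and Cd274. Zc3h12a encodes an RNase that cuts inflammatory messenger RNAs, Nfkbiz a nuclear regulator of NF-kB and Cd274 the checkpoint ligand PD-L1. Their root mean square differences from Myc were 0.240, 0.262 and 0.293. Nfkbiz had group means of 47.87 untreated, 919.5 with LPS and 104.00 under the CstF-64 label. For Mxd1 the nearest were Arg2, a mitochondrial arginase (0.225), Clu, the chaperone clusterin (0.233), and Gadd45b, a stress signalling protein (0.238). Arg2 had group means of 22.67, 153.9 and 21.17 in the same order. Each set of nearest genes was drawn from 7997 other genes. As they were chosen for likeness to genes high with LPS, their own LPS levels are a description. Zc3h12a (10.77, 191.9 and 19.87) and Arg2 exceeded the background limit on average only with LPS.

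The rest of the pathway was taken from gene lists: other network proteins, cofactors, regulators of MYC protein stability, targets and proliferation markers. These lists were chosen with earlier results of these data known, so their counts are descriptions. Among 5 other network proteins only Mlx was called with LPS, which with 5 genes is near the 17.1% of all genes. Mlx, the MAX-like partner of the glucose-sensing MLXIP proteins, rose from 160.3 ± 22.1 to 241.9 ± 21.2 (0.56, limma adjusted p = 0.0172). It missed the threshold without untreated array 3 (0.45, adjusted p = 0.0637). Mga, a repressor that also pairs with MAX, stood at 61.17 ± 13.4 and 33.27 ± 9.81 (-0.68, adjusted p = 0.0967). Mycl, the third MYC gene, was near background in all groups.

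Among 19 cofactors of MYC and MXD proteins, 6 fell and 1 rose with LPS, where 10.4% of all genes were called lower and 6.67% higher. Their median was -0.42, and that of all genes -0.03. Kat2a, the acetyltransferase GCN5, fell from 217.7 ± 42.8 to 97.27 ± 15.0 (-1.06, limma adjusted p = 0.00646). Ruvbl1, an ATPase of the TIP60 complex, fell from 207.8 ± 20.1 to 100.0 ± 28.5 (adjusted p = 0.00657). Both are partners through which MYC activates. On the repressing side, the SIN3 scaffold gene Sin3b rose from 391.8 ± 43.2 to 636.3 ± 56.0 (0.68, adjusted p = 0.00465). The other SIN3 gene of the list, Sin3a, was lower without being called, at 233.2 and 161 (-0.50, adjusted p = 0.0659). Yet Rbbp7, a histone-binding protein of the same SIN3 complex, fell from 1504 ± 87.9 to 693.3 ± 148 (-1.12, adjusted p = 0.00339). Ruvbl2, Wdr5 and Hcfc1 also fell. The median shift of all probe sets was -0.04 here and 0.12 under median centring, under which 4 cofactors fell. With same-numbered arrays fitted as blocks, 10 fell.

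Of 15 regulators of MYC protein stability 5 fell and 3 rose with LPS, against the same 10.4% and 6.67% of all genes. Pim1, a kinase that stabilises MYC and is induced by cytokines, rose from 94.5 ± 15.3 to 489.5 ± 169 (2.18, limma adjusted p = 2.7e-04). Plk1 and Aurka, mitotic kinases that protect MYC proteins from degradation, fell by 2.58 (adjusted p = 1.0e-05) and by 1.83 (adjusted p = 2.4e-05). Cip2a, an inhibitor of the phosphatase PP2A, fell from 114.3 ± 18.9 to below background, at least 3.63-fold. The ubiquitin ligase genes Skp2 and Huwe1 fell as well (-1.83 and -0.66). Gsk3b, a kinase that marks MYC for degradation, and Ppp2ca, the catalytic subunit of PP2A, rose by smaller steps (0.62 and 0.37). These last rises were not firm: leaving out any 1 untreated array brought the count of higher genes from 3 to 1.

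Of 42 measured genes known as activated by MYC, 16 fell and 1 rose with LPS, where 10.4% of all genes fell and 6.67% rose. Their median was -0.67. Cad, which starts pyrimidine synthesis, fell from 398.4 ± 28.4 to 105.9 ± 19.5 (-1.80, limma adjusted p = 1.6e-04). Dnph1, a nucleotide hydrolase also known as Rcl, fell from 105.9 ± 27.8 to below background, at least 3.31-fold. Cdk4, the G1 cyclin-dependent kinase, fell from 752.6 ± 66.6 to 412.6 ± 41.2 (-0.85, adjusted p = 0.00126), and Prmt3, a methyltransferase of a ribosomal protein, from 246.8 ± 29.8 to 121.7 ± 20.8 (-0.95, adjusted p = 0.00205). Leaving out single arrays moved the count of lower genes to between 12 and 20. The lowest count came without untreated array 2.

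The gene called higher was Odc1, the first enzyme of polyamine synthesis. It read 5126.2, 2273.0 and 2287.2 with LPS, against a mean of 1147 ± 202 untreated. Its rise of 1.39 (limma adjusted p = 0.0336) leaned on LPS array 1, and without that array it was 1.00 (adjusted p = 0.0896). It also missed the threshold without untreated array 1 (1.49, adjusted p = 0.0637), 2 (1.43, adjusted p = 0.0817) or 3 (1.24, adjusted p = 0.108), and under quantile normalization (1.12, adjusted p = 0.0839).

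Of 8 genes known as repressed by MYC, 1 rose and 1 fell with LPS, which with 8 genes is near the 6.67% and 10.4% of all genes. Gadd45a, a stress gene, had means of 7.4 untreated and 34.73 with LPS (1.18, limma adjusted p = 0.0386). It was below background in all 3 untreated arrays and in LPS array 1, which leaves a rise of at least 1.03-fold. Cebpa, a myeloid transcription factor, had means of 163.4 and 67.97 (-1.25, adjusted p = 0.0456). Neither call was firm. Gadd45a was lost without any 1 untreated array (adjusted p = 0.0656 to 0.116) and without LPS array 2 or 3 (adjusted p = 0.106 and 0.119). Cebpa was lost without any 1 untreated array (adjusted p = 0.0954 to 0.131), without LPS array 1 (adjusted p = 0.0686) and without CstF-64 array 2 or 3 (adjusted p = 0.0645 and 0.0538).

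Proliferation markers moved with the same comparison. Of 16 measured, 15 fell with LPS and 0 rose, where 10.4% of all genes were called lower and 6.67% higher. Their median was -2.36, and that of all genes -0.03. Cyclin gene Ccna2 fell from 895.9 ± 92.1 to 118.1 ± 30.0 (-2.81, limma adjusted p = 9.1e-06), and the helicase subunit gene Mcm5 from 555.9 ± 73.9 to 100.8 ± 38.2 (-2.36, adjusted p = 1.1e-04). Ccnb2, Mki67 and Birc5, genes of mitosis and the dividing state, stood at -3.58, -3.48 and -2.84. Many activated MYC targets, Plk1, Aurka and Cip2a are themselves higher in dividing cells, and the part of this marker list in their change was not tested. Under the CstF-64 label no gene of any of these lists was called by limma against untreated, where 0.274% of all genes were called. With a share that low, the absence of calls in lists of this size is not a result about them. The medians there were -0.07 for activated targets and -0.20 for proliferation markers, where that of all genes was 0.01.

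**Figure D4:**
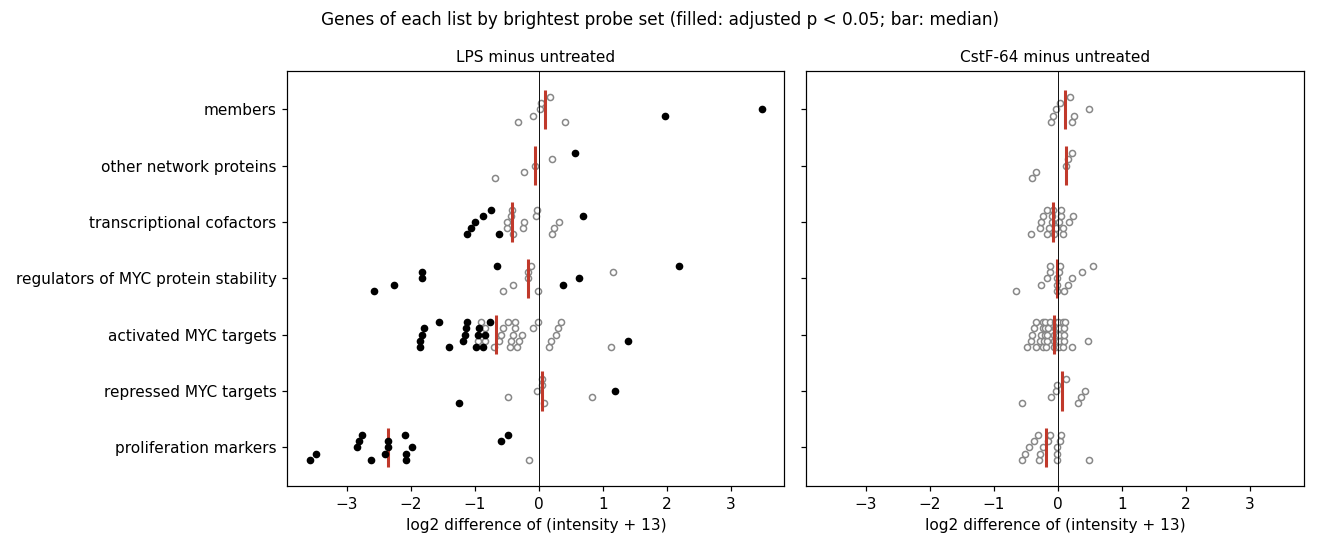
Log2 difference from untreated cells, on the log2(intensity + 13) scale, for each measured gene of the members and of the gene lists. The left panel shows LPS and the right panel the arrays labelled CstF-64. Filled points were called by limma at an adjusted p under 0.05, open points were not, and red bars are list medians. With LPS, activated MYC targets lie mostly below 0 with a median of -0.67, and proliferation markers lie lowest with a median of -2.36.

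The E-box was also looked up in the promoters of the activated targets, since MYC and MXD proteins are known to meet at such promoters. It was in 10 of the 36 that matched the table, or 27.78%, against 8.09% of all genes there. The list was drawn up of known MYC targets, so this share describes the choice of genes. Among targets lower with LPS the motif was in 3 of 15 (20%), and among those not called in 7 of 20 (35%). The 3 lower genes with the motif were Cdk4, Prmt3 and Dnph1, and their windows are printed because these genes are among the 4 of smallest p in that list. Cdk4 held 4 copies, of which that at position -172 is at chr10:127063343-127063388 on the plus strand. The Prmt3 motif, at position -13, is in chr7:49778325-49778357 on the plus strand, and the Dnph1 motif, at position -17, is in chr17:46496752-46496788 on the plus strand. Lower case gives the flanks and capitals mark the E-box.
Cdk4: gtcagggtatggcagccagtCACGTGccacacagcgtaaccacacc
Prmt3: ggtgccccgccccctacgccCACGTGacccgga
Dnph1: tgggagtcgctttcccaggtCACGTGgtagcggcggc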

How the data were processed

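For each probe set and array the authors deposited 1 linear intensity. No source used here names the software or normalization behind these intensities. They had been scaled, as the deposited intensities show: each array's mean after trimming 2% from each end was 150.05 to 150.06. Isolation with Ultraspec and hybridisation at a core facility are stated per the labels. The platform annotation gave 1 gene for 20380 of 22626 probe sets that are not controls, several for 691 and none for 1555.

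Intensities were taken as log2(intensity + 13) and fitted in 1 limma 3.58.1 model (R 4.3.3) with a mean per group over all 9 arrays, then eBayes with a trend. Tests were two-sided, with Benjamini-Hochberg adjustment over all 22626 probe sets and a threshold of 0.05. The scripts were tested on simulated data. The background limit, 31.2, is the highest intensity of 27 Bacillus control probe sets, whose median was 2.2. An "at least" fold is the geometric mean of the higher group divided by the limit, which stands in for the dimmer group. Readings under the limit in the higher group were kept as they were. With 3 arrays per group, the number of arrays limits the precision.

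The members and lists were chosen with earlier results of these data known. Named genes were all members, the 4 genes of smallest p for LPS in each list (2 where fewer than 4 were called), Cstf2, and the 3 genes nearest in pattern to each called member. Odc1, Mcm5, Ndrg1, the genes nearest to Mxi1 and the other list genes were named after their values were seen. Alternatives were other scalings, pseudocounts, filters, variance models, sample sets, a replicate block and leaving out each array. The E-box was searched in RefSeq promoters of GRCm38.p6.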

Additional observations from a re-analysis of the deposited data

How the results depend on the processing

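The calls of Myc, Mxd1 and Mycn (1417155_at and 1425922_a_at) with LPS kept their direction and side of the threshold under all 17 alternatives. Averaging a gene's probe sets moved the members called from 2 to 4 with LPS and from 2 to 4 for CstF-64 against LPS. The share of all genes called by that average is not given here. Same-numbered arrays of different groups did not all deviate together (correlations -0.063 to 0.158, against -0.236 to 0.196 for other numbers), and the labels tie no number to a shared culture or day, so the numbers were not used as pairs. With the replicate block, 32 probe sets in place of 56 were called for CstF-64 against untreated, 11 cofactors in place of 7 and 1 repressed target in place of 2 with LPS. The block changed no call of a member counted by its brightest probe set.

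The 2 repressed targets became 1 under quantile normalization, median centring, the smaller pseudocount, the dim filter, no trend and a fit of only the 2 groups. They were 0 to 2 without single arrays. Other network proteins called with LPS went from 1 to 2 under the dim filter (Mga joining Mlx), and were 0 to 1 without single arrays. Members with unequal probe sets went from 1 to 2 with LPS under quantile normalization and the smaller pseudocount. For CstF-64 against LPS they went from 2 to 1 under the larger pseudocount and the dim filter, and were 1 to 2 without single arrays. Without single arrays, probe sets called with LPS ranged from 2399 (without untreated array 2) to 4118, against 3755. For CstF-64 against LPS they ranged from 2093 (without CstF-64 array 3) to 3299, against 3443. For CstF-64 against untreated they ranged from 18 (without untreated array 2) to 110 (without CstF-64 array 1). The causes were not tested. List counts under these settings were added after seeing the data. Signal over background limits what can be said of Mxd4, of the dim probe sets of Mxd3 and Mnt, and of the untreated levels of Myc and Mxd1.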
